A study of Mus musculus with 4 samples.

Results

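The receptors for dopamine, serotonin, noradrenaline and acetylcholine were followed through every class of nuclei that could be told apart in the brains of WT and *Csf1r*+/- (HET) mice. The set took in every gene of the families *Htr* (serotonin receptors), *Drd* (dopamine receptors), *Adra* and *Adrb* (alpha and beta adrenergic receptors), *Chrm* (muscarinic acetylcholine receptors) and *Chrn* (subunits of nicotinic acetylcholine receptors). By symbol, 49 of the 31053 gene rows belonged to it, and all 49 had at least 1 transcript in the nuclei kept. Membership was set by symbol alone, although the families were picked with earlier results of these data known.

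Single-nucleus RNA sequencing had been done on whole brains of female C57/BL6 mice at 2 months of age, without treatment. The HET mice were germline heterozygotes for *Csf1r*, the receptor through which microglia receive survival signals, so that every cell type carried the change. The WT mice had both copies. There were 2 libraries per genotype (WT replicates 1 and 2, HET replicates 1 and 2), and a further library per genotype that the study had is not analysed here. After filters on depth and mitochondrial content, 16114 and 15247 WT nuclei and 9589 and 11182 HET nuclei were kept, with medians of 5490, 4636, 7454 and 6656 unique molecular identifiers (UMIs, each 1 counted transcript) per nucleus. As a check of the labels, *Csf1r* in microglia stood at 835 and 862 CPM (UMIs per 1000000 UMIs of the microglia) in WT and at 611 and 583 in HET replicates 1 and 2.

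The monoamines and acetylcholine are released by small groups of neurons whose axons reach most of the brain, so that the response of a region depends largely on which receptors its cells carry. All but the nicotinic receptors and the *Htr3* channels are G protein-coupled: some raise cyclic AMP, some lower it, and others release calcium through phospholipase C. In the striatum the direct pathway neurons are known for the D1 dopamine receptor and the indirect pathway neurons for the D2 receptor, a division that antipsychotic and antiparkinsonian drugs act on.

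Nuclei were clustered without the receptor genes and named from fixed marker lists. This gave 55 groups, of which 48 were neuronal, and 47 had at least 10 nuclei in every library. Each name means "like" that type. Groups that matched no list are called by their leading genes, such as the Gata3/Lhx1os inhibitory group. In all, 4838 nuclei, or 9.28% of those kept, stayed in no named class. Levels below are in CPM, the UMIs of a gene per 1000000 UMIs of its group in a library, given as mean ± SD over the 4 libraries (n = 4, both genotypes together) unless values are given by library. They compare 1 gene between groups and not genes with each other. The order of groups is a description without a test, because the groups were made from the same nuclei. Libraries shared between 33 and 68 barcodes per pair. WT replicate 2 stood apart in its oligodendrocytes (1209 nuclei, against 310 to 437 in the other libraries), and 213 of the 248 nuclei of the Slc6a5/Tfap2d group came from WT replicate 1.

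**Figure D1:**
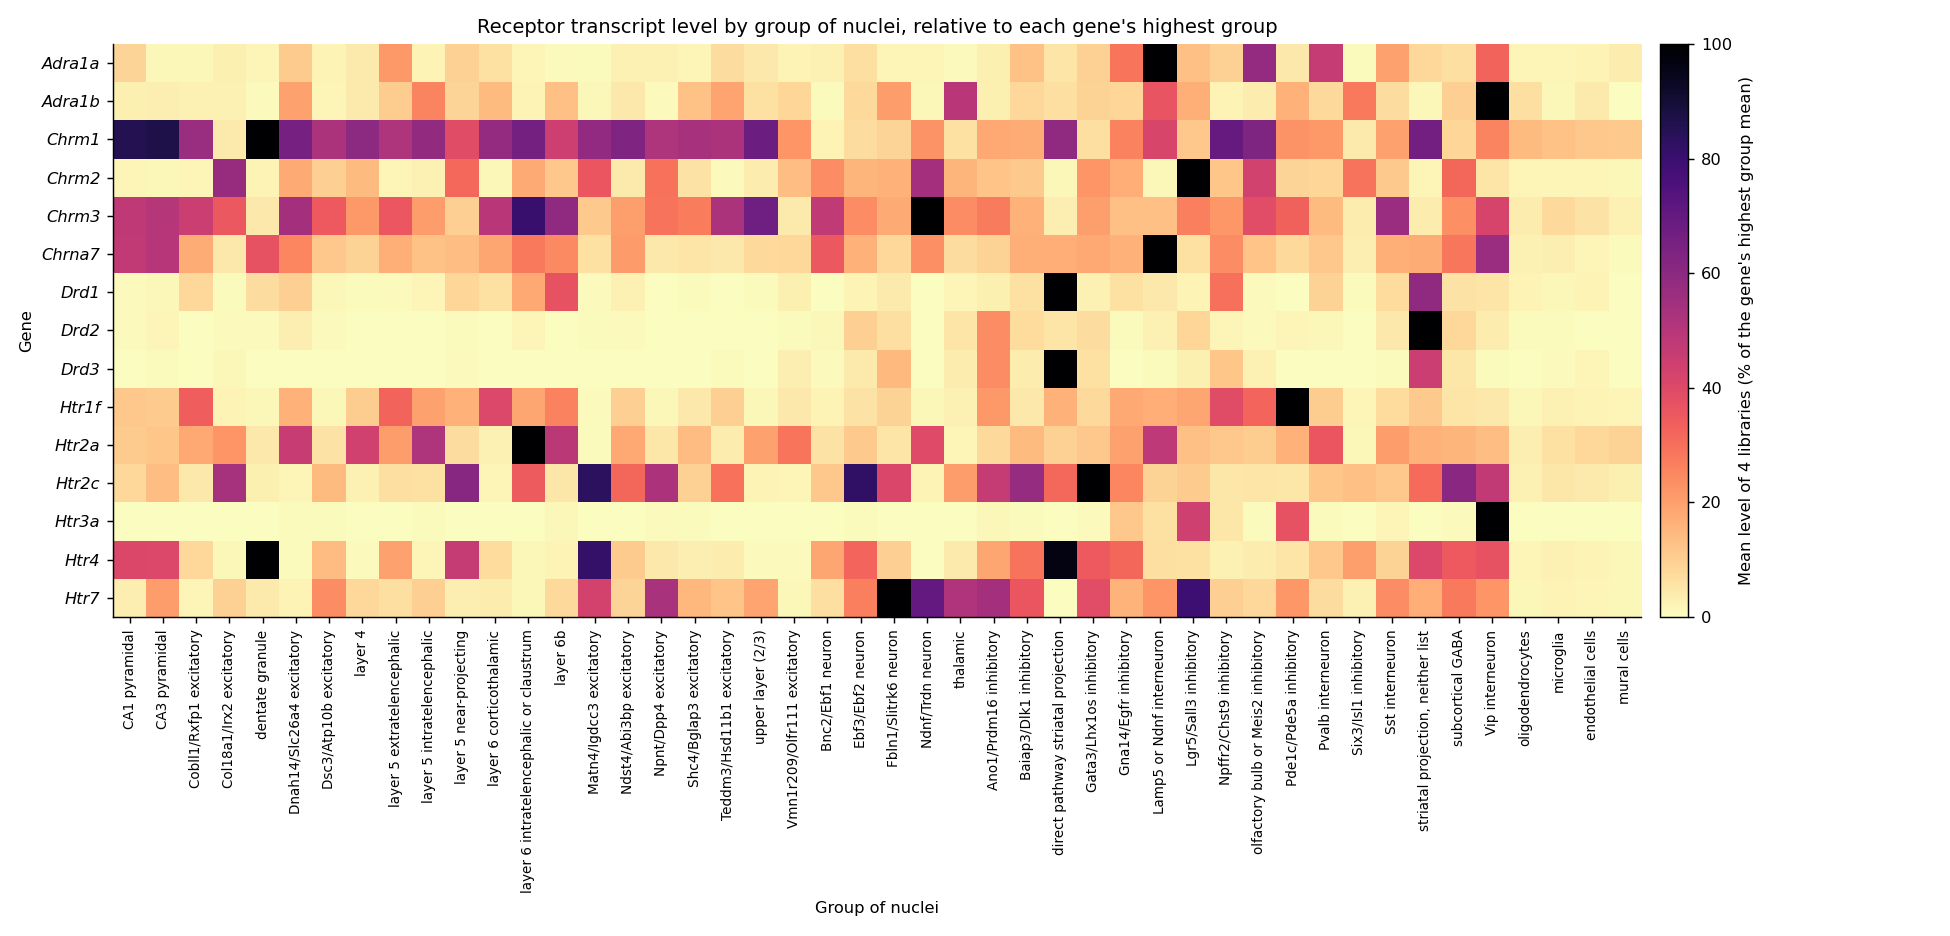
Mean level of 15 receptor genes (rows) in groups of nuclei (columns), as a percentage of that gene's own highest group mean over the 4 libraries. *Htr3a*, *Drd1* and *Drd2* were high in few columns, whereas *Chrm3* was above 20 CPM in all 47 groups.

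The dopamine receptor genes marked out the striatal projection neurons. *Drd1*, which couples to stimulation of cyclic AMP, was highest in the direct pathway group at 86.6 ± 12.5 CPM, with 79.9 and 101 in WT and 91.9 and 73.3 in HET. That range lay above the range of each of the other 46 groups. Outside the striatum the layer 6b neurons of the cortex held 31.8 ± 4.94 (27.6 and 34.8 in WT, 27.8 and 37.2 in HET) against 3.42 ± 0.941 over all excitatory neurons. *Drd2*, which couples to inhibition of cyclic AMP, reached 147 ± 14.7 in striatal projection nuclei that matched neither pathway list. By library it stood there at 153, 158, 152 and 126, above the other 46 groups with at least 10 nuclei in every library. Next among these groups, an inhibitory group led by Ano1 and Prdm16 held *Drd2* at 35.4 ± 6.14. The indirect pathway group had too few HET nuclei to be among them and stood higher, at a pooled 536 CPM. The small dopaminergic and cholinergic groups given below also stood higher. The group on neither list joins clusters that differed in *Drd2*, as given below.

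The upstream sequences of this receptor pair are shown because its levels differed between striatal clusters that were made without it. Each runs 5′ to 3′ on the strand of the gene and comes from the RefSeq window before the start of transcription (GRCm38.p6), without the bases that the GENCODE annotation places in an exon. Capitals mark GC boxes (GGGCGG on either strand).
Drd1, chr13:54055706-54055908, minus strand: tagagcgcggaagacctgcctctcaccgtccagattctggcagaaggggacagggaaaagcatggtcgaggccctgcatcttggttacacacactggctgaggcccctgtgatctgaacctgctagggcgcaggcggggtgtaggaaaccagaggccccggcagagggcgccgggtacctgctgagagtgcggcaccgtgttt
Drd2, chr9:49340153-49340402, plus strand: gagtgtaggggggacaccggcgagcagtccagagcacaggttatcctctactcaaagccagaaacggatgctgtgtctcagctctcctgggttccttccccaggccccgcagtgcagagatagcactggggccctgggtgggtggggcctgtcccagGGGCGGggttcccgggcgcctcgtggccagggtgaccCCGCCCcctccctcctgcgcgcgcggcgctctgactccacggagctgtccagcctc
Both stretches were rich in G and C (62.6% for *Drd1* and 68.8% for *Drd2*, against a median of 52.4% over all promoter windows), and neither held a TATAAA box. The *Drd2* stretch held 2 GC boxes and the *Drd1* stretch 0. Of all 32851 windows of 250 bases, 32.7% held a GC box, as did 47.6% of the 42 windows of 37 receptor genes. These are matches of letters, not sites shown to be bound. *Drd1* lies at chr13:54051183-54055705 on the minus strand and *Drd2* at chr9:49340627-49408177 on the plus strand.

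A closer clustering of the striatal nuclei, run without the receptor genes, gave 8 named clusters that differed in *Drd1* and *Drd2*. Striatal nuclei whose cluster stayed in no named class are left out here. In the 90 indirect pathway nuclei, led by *Adora2a* and *Penk* (the adenosine A2a receptor and the enkephalin precursor), *Drd2* reached 558 and 520 CPM in the WT libraries, beside 605 and 476 in HET. The HET values rest on only 8 and 3 nuclei, against 21 and 58 in WT, and do not serve to compare the genotypes. *Drd1* had 0 UMIs in the indirect pathway nuclei, with an upper 95% Poisson limit of 7.27 CPM. The next cluster of 72 nuclei, also led by *Adora2a* and *Penk*, held *Drd2* at 363, 348, 297 and 293 by library and 2 *Drd1* UMIs. The reverse was seen in 3 of the direct pathway clusters and 1 cluster that matched neither list, in which *Drd2* had 0 UMIs, with upper limits of 9.08 to 31.4. *Drd1* was found in each of these 4 clusters, at pooled levels of 71.4 to 102. The largest direct pathway cluster (99 nuclei) held *Drd1* at 90.2 and 113 in WT and 131 and 84.4 in HET, beside a pooled *Drd2* level of 17.9 (95% Poisson interval 8.57 to 32.9). That *Drd2* level rests on 10 UMIs, 4 and 6 in WT and 0 in both HET libraries. They came from 1.82% of the nuclei in the direct pathway clusters not led by *Clic6*. A cluster of 81 nuclei led by *Rxrg*, *Tac1* and *Casz1* carried both, with *Drd1* at 84.6, 59.3, 53.9 and 59.2 and *Drd2* at 75.2, 107, 144 and 110 by library. These levels are sums over a cluster and do not say whether both were in the same nuclei. Intervals and limits cover counting error only.

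**Figure D2:**
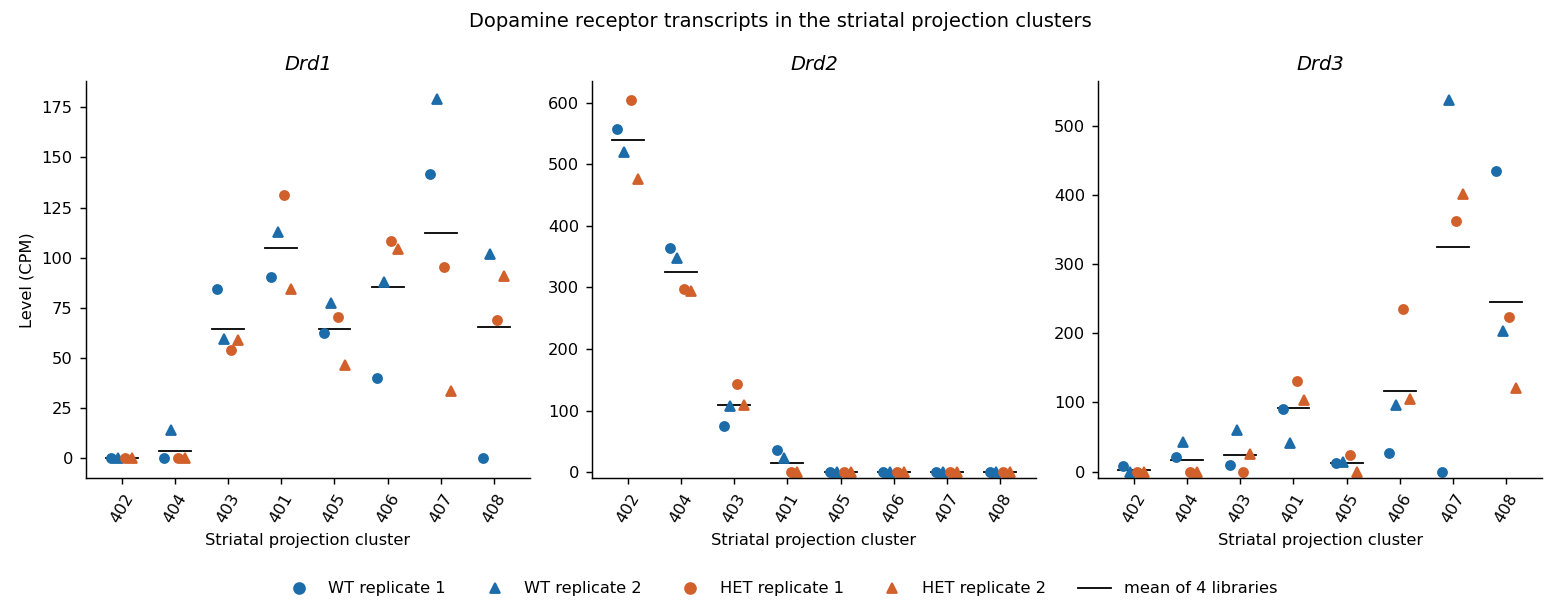
Level of *Drd1*, *Drd2* and *Drd3* (CPM, within the cluster) in the named striatal projection clusters, with 1 point per library and a line at the mean of the 4 libraries. *Drd2* lay between 476 and 605 in the 4 libraries of cluster 402, where *Drd1* was at 0. This cluster rests on 8 and 3 nuclei in HET. Clusters 407 and 408, where *Drd3* was highest, rest on 3 and 1 nuclei in WT replicate 1.

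*Drd3*, a D2-like receptor known for its expression in the ventral striatum and the islands of Calleja, followed neither of these patterns. In the direct pathway group as a whole it stood at 59.9 and 78.0 in WT and 162 and 141 in HET. Within the named striatal clusters it was concentrated in a pair of direct pathway clusters led by *Clic6*, *Tac1*, *Gpr149* and *Frem2*, each of 44 nuclei, with pooled levels of 392 (287 to 523) and 198 (138 to 274). In the indirect pathway cluster 1 *Drd3* UMI was found. The same pair of clusters held the highest pooled *Htr4* levels of the named striatal clusters, 954 (785 to 1148) and 643 (531 to 770), against 225 (188 to 268) in the largest direct pathway cluster. The other dopamine receptors were sparse: *Drd5* had 122 UMIs and *Drd4* 13 UMIs in all nuclei.

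Among the serotonin receptors, *Htr2c* and *Htr1f* were the most widespread, each above 20 CPM in 44 of 47 groups. *Htr2c*, a Gq-coupled receptor known for restraining feeding, was highest in the Gata3/Lhx1os inhibitory group at 991 ± 128 (1021 and 877 in WT, 907 and 1159 in HET). The Matn4/Igdcc3 excitatory group (828 ± 52.3) and the Ebf3/Ebf2 neurons (816 ± 64.6) followed. In the cortex it separated the near-projecting layer 5 neurons, at 661, 629, 558 and 569 by library, from the extratelencephalic layer 5 neurons at 63.7 ± 10.4 and the intratelencephalic ones at 60.4 ± 15.4. Among interneurons the Vip group held 467 ± 73.8, against 90.3 ± 39.4 to 119 ± 22.5 in the Lamp5 or Ndnf, Sst and Pvalb groups.

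*Htr1f*, a Gi-coupled receptor and the target of lasmiditan in migraine, reached 1524 ± 136 in the Pde1c/Pde5a inhibitory group (1397 and 1617 in WT, 1665 and 1420 in HET), above every other group. In the cortex its level was higher from layer to layer: 18.7 ± 7.34 in upper layer neurons, 159 ± 29.6 in layer 4, 296 ± 56.5 in intratelencephalic layer 5, 500 ± 44.1 in extratelencephalic layer 5 and 619 ± 60.1 in corticothalamic layer 6 neurons. The 4 library values of each of these groups did not overlap with those of the next, except between the layer 5 extratelencephalic group (456 to 560) and the layer 6 group (536 to 667). Layer 6b neurons, at 393 ± 42.0, lay below both.

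*Htr2a*, the receptor through which psychedelic drugs act on the cortex, was highest in the group of layer 6 intratelencephalic or claustrum neurons at 186 ± 29.2 (183 and 167 in WT, 166 and 229 in HET), with no overlap with any other group. Intratelencephalic layer 5 (96.3 ± 12.7), layer 6b (90.9 ± 26.5) and layer 4 (81.2 ± 13.6) followed with overlapping ranges. Corticothalamic layer 6 neurons, which were rich in *Htr1f*, held 4.84 ± 1.92, and thalamic neurons 3.61 ± 1.87.

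*Htr4* and *Htr7*, both coupled to cyclic AMP formation, had different territories. *Htr4* was highest in dentate granule neurons at 334 ± 64.9 (313 and 303 in WT, 430 and 290 in HET), in the direct pathway group at 323 ± 175 and in the Matn4/Igdcc3 excitatory group at 272 ± 44.5. These ranges overlapped, and without WT replicate 1 or without WT replicate 2 the direct pathway group came first. *Htr4* was near its floor in upper layer neurons (2.75 ± 1.68) and layer 4 (3.12 ± 1.35). *Htr7* was highest in the Fbln1/Slitrk6 neurons at 218 ± 35.6 (251 and 190 in WT, 248 and 185 in HET), with the Lgr5/Sall3 inhibitory group (173 ± 43.5) overlapping. Thalamic neurons held *Htr7* at 112 ± 12.7, and corticothalamic layer 6 neurons at 8.30 ± 2.29.

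*Htr3a*, the subunit of a ligand-gated cation channel and a classical marker of interneurons outside the Sst and Pvalb types, was found mostly in the Vip group. It stood there at 32.3 and 32.4 in WT and 32.8 and 25.0 in HET, and 108 of its 195 UMIs came from these 777 nuclei. The Lgr5/Sall3 group held 13.5 ± 5.66, the Lamp5 or Ndnf group 1.90 ± 2.33 and the Sst group 0.547 ± 0.416. Its partner *Htr3b* had 16 UMIs in all. *Htr2b* was counted with 4580 UMIs but at an even level: its highest group stood at 18.0 ± 10.6, and its range lay above the range of 0 of the other groups. *Htr2b* (chr1:86099026-86111970) lies within *Psmd1* (chr1:86064387-86139151) on the opposite strand. The other serotonin receptors (*Htr1a*, *Htr1b*, *Htr1d*, *Htr5a*, *Htr5b* and *Htr6*) had highest group means between 2.95 and 20.4 CPM.

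The alpha 1 adrenergic receptors *Adra1a* and *Adra1b*, which raise calcium in response to noradrenaline, were highest in different interneuron groups, though each was found in both. *Adra1a* was highest in the Lamp5 or Ndnf group at 486 ± 61.3 (508 and 422 in WT, 561 and 454 in HET), above every other group. It was found in 73.2% of these nuclei, or in 34.5% with each nucleus thinned to 1000 UMIs, against 2.16% (0.26% thinned) of the thalamic nuclei. The olfactory bulb or Meis2 inhibitory group came second for *Adra1a*, at 282 ± 37.6. Pvalb interneurons held *Adra1a* at 225 ± 19.6, Vip at 159 ± 25.4 and Sst at 95.2 ± 20.2. *Adra1b* was highest in the Vip group at 147 ± 25.3 (115 and 153 in WT, 176 and 142 in HET), above all other groups. Thalamic neurons held *Adra1b* at 72.1 ± 14.8, the Lamp5 or Ndnf group at 53.3 ± 2.17, Pvalb at 11.2 ± 3.74 and Sst at 9.86 ± 4.60. *Adra1d* did not pass 10.7 in any group.

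**Figure D3:**
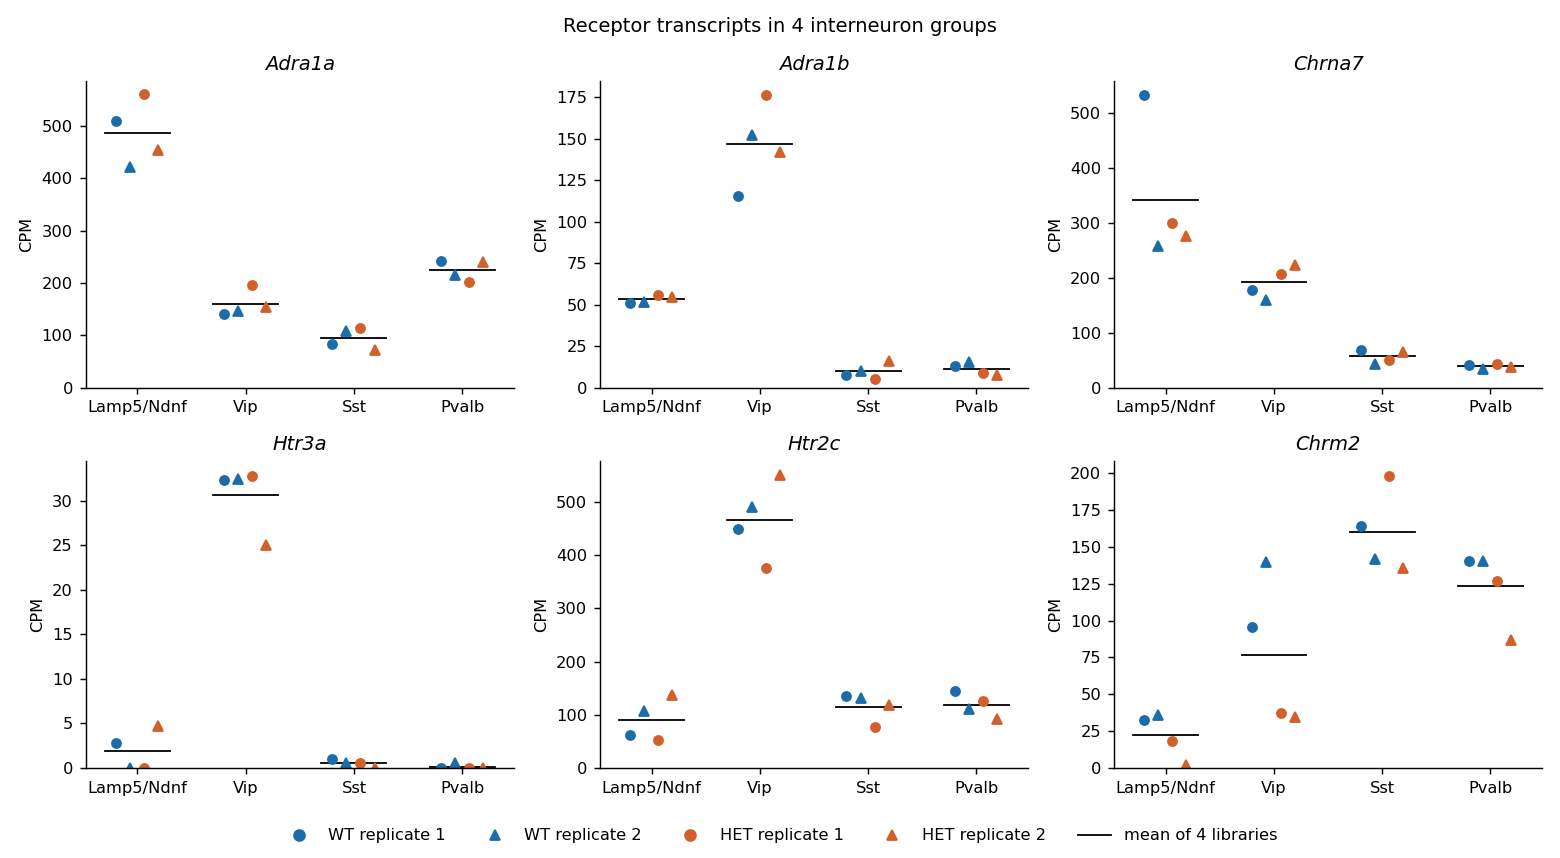
Levels of *Adra1a*, *Adra1b*, *Chrna7*, *Htr3a*, *Htr2c* and *Chrm2* (CPM) in the Lamp5 or Ndnf, Vip, Sst and Pvalb interneuron groups, with 1 point per library and a line at the mean of the 4 libraries. *Adra1a* and *Chrna7* were highest in the Lamp5 or Ndnf group, and *Adra1b*, *Htr3a* and *Htr2c* in the Vip group.

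The alpha 2 receptors, the presynaptic brakes on noradrenaline release that clonidine acts on, were low. *Adra2a* was highest in the Npffr2/Chst9 inhibitory group at 11.4 and *Adra2c* in the direct pathway group at 14.0. *Adra2b* had only 51 UMIs, but 32 of them came from thalamic neurons, at 3.78 and 2.995 in WT and 2.72 and 2.64 in HET, beside 1.12 in the next group. *Adrb1*, the cardiac type of beta receptor, was spread over excitatory neurons, with 31.1 ± 2.82 in upper layer neurons, and reached 32.2 ± 10.7 in microglia. The microglial value rests on 30 UMIs, and its range (25.4 to 47.9) overlapped that of upper layer neurons (27.3 to 33.7). With nuclei of at least 1000 UMIs the upper layer neurons came first. *Adrb3* did not pass 2.10 in any of the 47 groups.

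*Chrm3*, a Gq-coupled muscarinic receptor, was the most frequently counted member, with 336119 UMIs. It stood above 20 CPM in all 47 groups. Non-neuronal groups are among these, and pan-neuronal genes were counted there too, at the ratios given below. Whether the *Chrm3* counted there arose in those cells was not tested. *Chrm3* was highest in the Ndnf/Trdn neurons at 2627 ± 449 (2804 and 2853 in WT, 1956 and 2897 in HET), in layer 6 intratelencephalic or claustrum neurons at 2106 ± 209 and in upper layer neurons at 1758 ± 210. The first range overlapped those of the other two. Near-projecting layer 5 neurons held *Chrm3* at 262 ± 79.4 and dentate granule neurons at 116 ± 10.0, the latter with 109, 123, 107 and 127 by library. Among interneurons the Sst group held 1480 ± 156 and the Vip group 1104 ± 120, against 374 ± 20.8 in the Pvalb and 339 ± 26.3 in the Lamp5 or Ndnf group.

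*Chrm2*, a Gi-coupled autoreceptor of cholinergic neurons that is also found on their targets, was distributed otherwise. It was highest in the Lgr5/Sall3 inhibitory group at 1438 ± 475 (1163 and 1199 in WT, 2149 and 1242 in HET) and in the Col18a1/Irx2 excitatory group at 823 ± 85.2. In the cortex *Chrm2* was high in near-projecting layer 5 neurons (452 ± 66.4) and layer 4 (207 ± 37.4), and low in corticothalamic layer 6 (22.0 ± 2.25) and extratelencephalic layer 5 neurons (24.2 ± 8.44). *Chrm1*, the main muscarinic receptor of the forebrain, was highest in the hippocampus, with 45.3 ± 10.9 in dentate granule, 39.4 ± 13.1 in CA3 and 38.7 ± 4.25 in CA1 neurons, 3 groups whose ranges overlapped. The dentate range (30.2 to 56.3) lay above only 29 of the other groups, so groups beyond CA3 and CA1 overlapped it too. In all, 22 groups reached 20 CPM of *Chrm1*. Thalamic neurons held *Chrm1* at 2.80 ± 1.22. *Chrm4* and *Chrm5* had 110 and 41 UMIs in all. *Chrm4*, known for the striatum, was not above 2.91 CPM in any of the 47 groups. In the GENCODE annotation *Chrm4* spans only 1440 bases and *Chrm5* 1599. Whether this covers the transcript ends that a 3′ kit reads was not tested, so low counts need not mean absence.

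Of the nicotinic subunits *Chrna7*, which forms calcium-permeable channels of its own, was the most frequently counted, with 20583 UMIs. It was highest in the Lamp5 or Ndnf interneurons at 533 and 258 in WT and 299 and 276 in HET, followed by Vip interneurons (192 ± 28.9), CA3 (170 ± 38.3) and CA1 neurons (161 ± 24.5). The Lamp5 or Ndnf range lay above the range of every other group. Sst and Pvalb interneurons held *Chrna7* at 56.9 ± 12.7 and 39.5 ± 3.73.

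*Chrna4* and *Chrnb2* encode the common high-affinity receptor for nicotine. *Chrna4* was highest in thalamic neurons at 18.4 ± 2.69, overlapping with layer 6b at 14.6 ± 7.73. *Chrnb2* did not pass 13.5 and lay above 17 of the other groups. *Chrna5*, an accessory subunit, was highest in corticothalamic layer 6 neurons at 16.9 ± 6.69 (12.1 and 17.1 in WT, 26.3 and 12.1 in HET) and near-projecting layer 5 neurons at 15.8 ± 4.54, and 471 of its 1036 UMIs came from the former. *Chrna5*, *Chrna3* and *Chrnb4* lie side by side on chromosome 9 (chr9:54980880-55007779, chr9:55010111-55026562 and chr9:55028154-55048779). Unlike *Chrna5*, *Chrna3* was highest in subcortical GABA neurons (13.4), followed by the Gna14/Egfr inhibitory group (6.08). *Chrnb4* had only 42 UMIs and reached 2.44 in the Gna14/Egfr group, its second highest. The subunits of the muscle receptor were rare, with 82 UMIs for *Chrna1*, 55 for *Chrng*, 25 for *Chrne* and 3 for *Chrnd*. *Chrna2*, *Chrna9* and *Chrna10* had 89, 72 and 57 UMIs, and 22 of the *Chrna10* UMIs came from the olfactory bulb or Meis2 inhibitory group, at 4.59 ± 2.07. *Chrnb1* was the exception among the muscle subunits, with 377 UMIs and its highest level in endothelial cells, at 9.59 and 43.5 in WT and 38.3 and 21.4 in HET. These values rest on 17 UMIs, and the range overlapped that of the mural cells (0 to 29.5 CPM).

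The neurons that release these transmitters were few, so their UMIs were pooled over libraries with 95% Poisson intervals, and no genotype comparison was made. In 37 dopaminergic nuclei *Drd2*, the autoreceptor of dopamine neurons, stood at 303 CPM (249 to 365), and it was found in 73.0% of them. *Chrna6* and *Chrnb3*, partner subunits of the nicotinic receptors on dopamine axons, stood there at 90.0 (61.9 to 126) and 62.7 (39.8 to 94.1), against at most 3.48 and 8.93 in the 47 larger groups. Of all 92 *Chrna6* UMIs, 33 came from these 37 nuclei. Their genes are neighbours on opposite strands, *Chrnb3* at chr8:27368711-27399730 and *Chrna6* at chr8:27403212-27413944.

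In 23 cholinergic nuclei *Chrm2* stood at 568 (472 to 678) and *Drd2* at 263 (199 to 341). In 32 serotonergic nuclei *Chrm2* stood at 306 (249 to 371) and *Adra1b*, through which noradrenaline excites serotonin neurons, at 153 (114 to 201). WT replicate 1 supplied 83 of those 102 *Chrm2* UMIs. The Gi-coupled *Htr1b* and *Htr1d*, autoreceptors on serotonin axons, each had 11 UMIs there, or 33.0 (16.5 to 59.0), and *Htr1a*, the autoreceptor of the cell body, had 2 UMIs.

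The genotypes were compared within 5 broad classes on UMIs summed per library, with edgeR's quasi-likelihood test (two-sided). A gene was tested when at least 10% of the nuclei of either genotype had a UMI of it and its counts summed to at least 10. Past the threshold means an unadjusted p under 0.01, and an adjusted p is the Benjamini-Hochberg value over all genes tested in the class. In excitatory neurons 0 of 12 receptor genes tested passed, and 0 had an unadjusted p under 0.05. The background was 0.314% of 7646 genes past 0.01, and 0% past an adjusted p of 0.05. The likelihood-ratio test and DESeq2 also brought 0 members past 0.01. The log2 fold changes of HET over WT lay between -0.38 (*Chrna7*, SE 0.25) and 0.21 (*Htr7*, SE 0.19). The smallest unadjusted p was 0.0768 for *Htr1f* (edgeR, adjusted p = 0.999), which stood at 269 and 244 in WT and 197 and 218 in HET without overlap.

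In inhibitory neurons 0 of 9 passed and 0 had an unadjusted p under 0.05, against a background of 0.12% of 6650 genes past 0.01 and 0% past the adjusted threshold. The likelihood-ratio test and DESeq2 gave 0 members as well. The log2 fold changes lay between -0.16 (*Chrna7*, SE 0.16) and 0.34 (*Chrm2*, SE 0.19). For *Chrm2* the inhibitory values were 232 and 216 in WT and 328 and 238 in HET. Its unadjusted p was 0.0772 with all libraries and passed 0.01 once HET replicate 2 was left out, in a fit where the lone HET library is assumed to vary like the WT pair. In both neuronal classes *Chrm3* lay within the spread of the libraries, with log2 fold changes of 0.15 (SE 0.18) and 0.11 (SE 0.11).

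In the non-neuronal classes 1 member, *Chrm3*, was detected in enough nuclei to be tested. In endothelial cells *Chrm3* fell by 1.62 on the log2 scale (SE 0.44, edgeR unadjusted p = 0.00024, adjusted p = 0.0163), with 211 and 218 CPM in WT and 53.7 and 92.9 in HET, from 66, 30, 7 and 13 UMIs. In oligodendrocytes *Chrm3* fell by 0.79 (SE 0.26, unadjusted p = 0.00228, adjusted p = 0.0725), with 117 and 124 in WT and 65.9 and 77.5 in HET. In microglia the edgeR change was -0.46 (SE 0.34, unadjusted p = 0.174), with 270 and 166 in WT and 116 and 233 in HET, so that the genotypes overlapped and 0 of 1 members passed, at 0.05 as well and with the likelihood-ratio test and DESeq2. The background of calls was high in all 3 classes and almost wholly toward lower values: 6.27% of genes in endothelial cells (224 of 241 calls lower), 5.94% in oligodendrocytes (194 of 196) and 7.81% in microglia (227 of 236). Past the adjusted threshold the shares were 3.1%, 1.42% and 4.17%.

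The median level of 6 pan-neuronal genes was also lower in HET in each of these classes, while *Chrm3* overlapped between the genotypes in microglia. All 6 pan-neuronal genes were found in these classes in each library, apart from *Grin1* at 0 in the endothelial cells of HET replicate 1, and their median level relative to the whole library was 0.219 and 0.245 in WT against 0.0740 and 0.124 in HET endothelial cells. For oligodendrocytes it was 0.153 and 0.167 against 0.0681 and 0.0948, and for microglia 0.309 and 0.282 against 0.113 and 0.203. The endothelial ratio for *Chrm3* was 0.233, 0.280, 0.0622 and 0.0915 in the same order of libraries. The oligodendrocyte ratio was 0.129, 0.160, 0.0764 and 0.0763, and the microglial ratio 0.298, 0.214, 0.134 and 0.230. The *Chrm3* ratio lay above the pan-neuronal ratio of the same library in 1 of 4 libraries in oligodendrocytes, 2 in microglia and 2 in endothelial cells. In oligodendrocytes and in endothelial cells fewer than 10 *Chrm3* UMIs were left over all libraries once an estimate of that RNA was subtracted. This lay under the minimum count for a test, so that its part in the difference was not tested. In microglia *Chrm3* could still be tested after the subtraction, with a log2 change of 5.28 (SE 4.50, edgeR unadjusted p = 0.240). In both WT libraries the microglial *Chrm3* ratio lay below the pan-neuronal ratio, so the subtraction left no *Chrm3* UMIs there. That change rests on the few UMIs left in HET and gives no size of a difference. *Chrm3* was found in 22.6% of endothelial nuclei (16.4% thinned), 17.6% of oligodendrocytes (11.0%) and 19.7% of microglia (15.4%), at median depths of 1119.5 to 2034 UMIs by library, against 82.4% (50.6%) of excitatory nuclei.

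**Figure D4:**
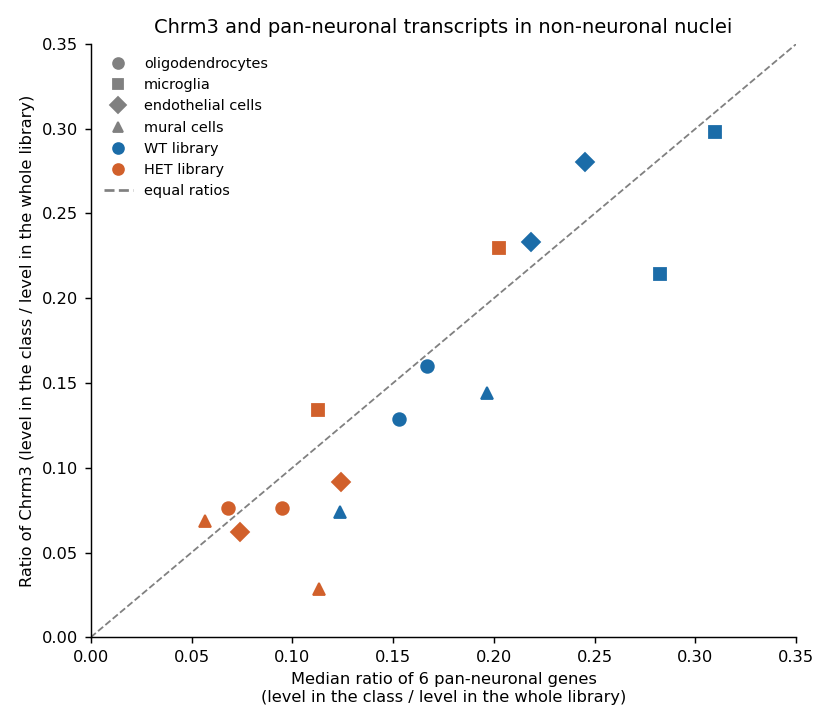
Ratio of *Chrm3* in a class to *Chrm3* in the whole library (vertical axis) against the median ratio of 6 pan-neuronal genes (horizontal axis), with 1 point per library for oligodendrocytes, microglia, endothelial cells and mural cells (not among the 5 broad classes compared). The dashed line marks equal ratios. The HET endothelial and oligodendrocyte points lie below and left of the WT points of the same class, from 0.0622 to 0.280 on the vertical axis in endothelial cells.

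Leaving out libraries changed these calls in part. The endothelial change in *Chrm3* kept an unadjusted p under 0.01 without each library in turn, with log2 values from -2.07 to -1.28. Its adjusted edgeR p was 0.0975 without WT replicate 1, 0.0692 without WT replicate 2 and 0.168 without HET replicate 1, in a range of 0.000969 to 0.267 over the alternatives. The oligodendrocyte change was not past 0.01 without WT replicate 2 (log2 -0.73, edgeR unadjusted p = 0.0138) or HET replicate 1 (log2 -0.67, edgeR unadjusted p = 0.0310).

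Whether the genotype contrast of a class differed from that of excitatory neurons was tested with limma on the difference of log2 levels within each library. Of 12 such differences over the receptor genes, 0 had an adjusted p under 0.05, 2 had an unadjusted p under 0.01 and 3 under 0.05. Over all genes 678 of 15050 differences had an unadjusted limma p under 0.01. Among them were 212 of 3017 for oligodendrocytes and 200 of 3003 for endothelial cells, the classes of the 2 receptor differences. The share of all genes under 0.05 was not computed. No other tool was run on them. The shares of all genes past the adjusted threshold were 0% for inhibitory neurons, 2.35% for oligodendrocytes, 0% for microglia and 0% for endothelial cells. For *Chrm3* the endothelial contrast minus the excitatory one was -1.70 (SE 0.34, limma adjusted p = 0.0864). The oligodendrocyte contrast minus the excitatory one was -0.92 (SE 0.20, limma adjusted p = 0.0541). For *Htr1f* the contrast in inhibitory neurons exceeded that in excitatory neurons by 0.45 (SE 0.16, limma unadjusted p = 0.0327, adjusted p = 0.999).

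Within single neuron subtypes and other groups, 393 tests of a receptor gene were made with edgeR, of which 11 passed 0.01 (6 higher and 5 lower in HET) and 39 passed 0.05. Over all genes 0.742% of 313809 tests passed 0.01. The share of all tests past 0.05 was not computed, so the 39 cannot be set against a background. For the receptor genes 1 test was past the adjusted threshold, against 0.015% of all tests. All of the 11 but 1 lost the threshold in some fit with a library left out. The likelihood-ratio test called 18.

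The call past the adjusted threshold was *Htr4* in direct pathway striatal neurons, at 165 and 181 in WT and 496 and 450 in HET. The log2 change was 1.42 (SE 0.32, edgeR unadjusted p = 7.2e-06, adjusted p = 0.0113). In this group 136 of 6255 genes tested, or 2.17%, passed 0.01 and 6 passed the adjusted threshold, a higher share than over all subtypes. *Drd3* rose in the same nuclei by 1.06 (SE 0.35, edgeR unadjusted p = 0.00259, adjusted p = 0.285), from 59.9 and 78.0 to 162 and 141. The makeup of the group moved with both genes: the clusters led by *Clic6*, which held the highest *Htr4* and *Drd3*, made up 10.8% and 30.2% of the direct pathway nuclei in WT and 55.8% and 47.7% in HET, from 4, 39, 24 and 21 nuclei. Within these clusters *Htr4* was at 428 and 524 in WT and 1021 and 809 in HET, without overlap, from 4, 61, 113 and 51 UMIs. *Drd3* was there at 107 and 283 in WT and 289 and 254 in HET, with overlap. The genotypes were not tested within these clusters. Without these clusters *Htr4* stood at 152 and 98.8 in WT and 136 and 273 in HET, with overlap. Its log2 change was then 0.73 (SE 0.38, edgeR unadjusted p = 0.0526, adjusted p = 0.993), and that of *Drd3* 1.03 (SE 0.52, edgeR unadjusted p = 0.0461, adjusted p = 0.993). With all nuclei *Htr4* kept an unadjusted p under 0.01 without each library in turn, but its adjusted edgeR p was 0.396 without WT replicate 1 and 0.398 without WT replicate 2, in a range of 0.000196 to 0.398 over the alternatives that kept all its nuclei. *Drd3* did not pass without WT replicate 1 (0.96), WT replicate 2 (1.32) or HET replicate 1 (0.94 on the log2 scale).

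The other calls were not past the adjusted threshold with all libraries in the quasi-likelihood test. *Htr2c* fell in CA1 pyramidal neurons (log2 -1.33, SE 0.39, edgeR unadjusted p = 0.000771), at 97.9 and 133 in WT and 26.2 and 62.5 in HET, and did not pass without WT replicate 2 (-1.16) or HET replicate 1 (-0.80). For *Htr2c* in CA1 neurons the adjusted edgeR p was 0.0105 with the likelihood-ratio test and 0.00984 without HET replicate 2, in a range of 8.89e-05 to 0.839 over the alternatives. *Htr2c* also fell in the Dnah14/Slc26a4 excitatory group (log2 -1.07), from 17.8 and 27.7 to 10.1 and 11.0, though not without WT replicate 2 (-0.77), HET replicate 1 (-1.01) or HET replicate 2 (-1.15). In the Ndst4/Abi3bp excitatory group *Htr2c* rose (log2 0.56), from 243 and 272 to 365 and 388, though not without WT replicate 1 (0.52), HET replicate 1 (0.61) or HET replicate 2 (0.51). The genotypes did not overlap in any of these 3 groups, which the selection by p on the same libraries makes likely.

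*Htr1f* likewise had calls in both directions. It fell in upper layer neurons (log2 -0.94, SE 0.35, edgeR unadjusted p = 0.0066), from 25.7 and 24.0 to 14.9 and 10.4, and not without WT replicate 1 (-0.84) or HET replicate 2 (-0.70). It fell in the striatal nuclei on neither list (log2 -0.80), from 244 and 184 to 111 and 130, and not without WT replicate 1 (-0.58), HET replicate 1 (-0.70) or HET replicate 2 (-0.95). It rose in the Fbln1/Slitrk6 neurons (log2 0.73), from 125 and 82.8 to 192 and 163, and not without WT replicate 2 (0.45). The difference between opposite calls of *Htr1f* or *Htr2c* was tested with limma for 4 pairs of groups, and 0 had an adjusted p under 0.05 (limma adjusted p from 0.684 to 0.998, unadjusted from 0.000288 to 0.00291). The pairs were picked by their opposite calls in these same libraries, which makes small unadjusted p values likely, so these are no further evidence.

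The other 3 calls were single. *Chrm2* rose in the Gata3/Lhx1os inhibitory group (log2 0.46), from 264 and 269 to 340 and 392, and not without WT replicate 1 (0.47) or HET replicate 2 (0.33). *Htr4* rose in extratelencephalic layer 5 neurons (log2 0.61), from 51.9 and 50.3 to 85.6 and 68.4, and not without WT replicate 1 (0.68), WT replicate 2 (0.54) or HET replicate 1 (0.45). *Chrna7* fell in olfactory bulb or Meis2 inhibitory neurons (log2 -0.86), from 52.6 and 55.7 to 29.1 and 29.4, and not without WT replicate 2 (-0.83), HET replicate 1 (-0.85) or HET replicate 2 (-0.87). In each of these calls the HET libraries lay on the same side of both WT libraries. The calls were selected on these same libraries, so this is no further evidence for them.

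**Figure D5:**
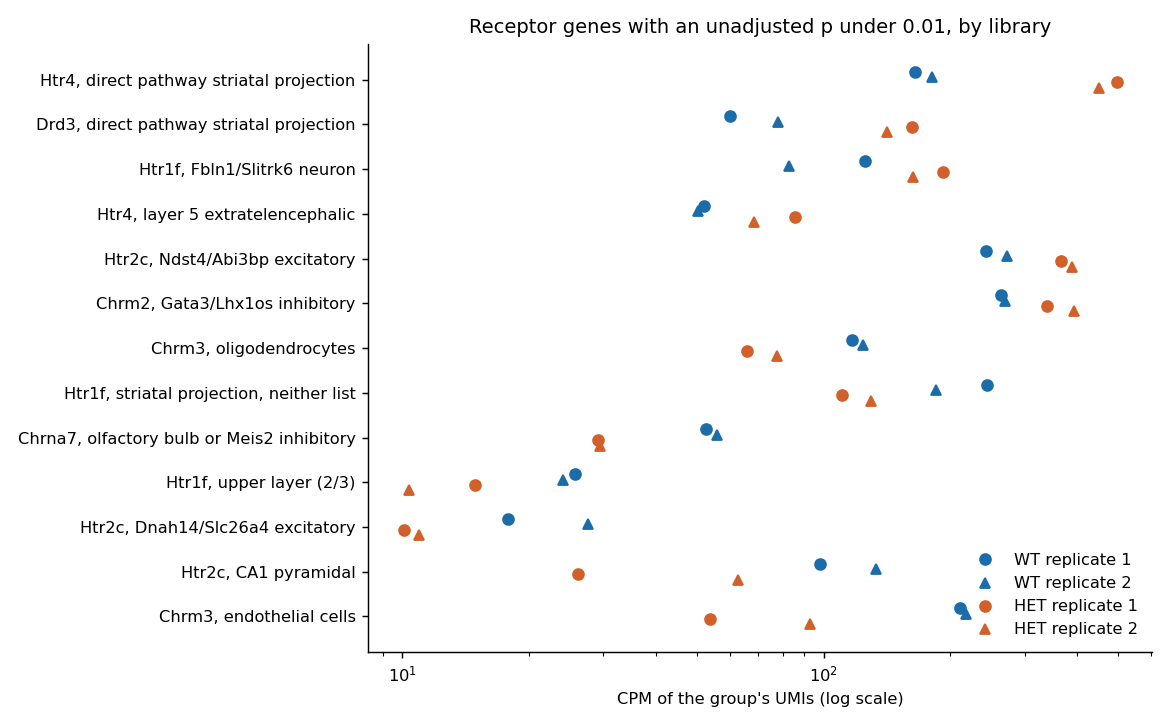
Receptor genes with an unadjusted p under 0.01 in a class or subtype, with the level in each library (CPM, log scale). In each row the WT and HET points do not overlap, with the widest gap for *Htr4* in direct pathway striatal neurons (165 and 181 against 496 and 450). The rows were selected by p on these same libraries, so the lack of overlap is no further evidence.

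Sizes of neuron groups were compared as shares of the neurons in named classes, and those of other groups as shares of all nuclei in named classes. In 26 of 55 groups the WT and HET shares did not overlap, and 8 of the 26 were higher in HET. With 2 libraries per genotype the smallest exact permutation p is 0.333, so that no share could pass 0.05. Direct pathway nuclei numbered 37 and 129 in WT and 43 and 44 in HET, and indirect pathway nuclei 21, 58, 8 and 3. The latter were too few for a test of *Drd2*.

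The receptors act through a shared set of partners, and of a list of 60 of them, the 58 found among the gene rows (G proteins, adenylyl cyclases and phospholipases, receptor kinases and arrestins, regulators, channels, nicotinic chaperones, transporters and degrading enzymes) were taken through the same tests. In neurons 0 of 39 partners tested passed 0.01 with edgeR in the excitatory and 0 of 39 in the inhibitory class, with median log2 fold changes of 0.03 and -0.02, and the medians over all genes tested lay within 0.01 of 0 in both. The smallest p values were those of *Kcnq5* (0.30, SE 0.16, edgeR unadjusted p = 0.0656), a channel of the M current that muscarinic receptors close, in excitatory neurons, and of *Adcy8* (0.19, SE 0.11, edgeR unadjusted p = 0.105) in inhibitory neurons.

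In oligodendrocytes 4 of 19 partners were lower and 0 higher, with a median of -0.14, against 5.94% of all genes called and 194 of those 196 lower. Among them were *Kcnj3* (log2 -1.39, edgeR adjusted p = 0.0476), the GIRK channel opened by Gi-coupled receptors, and *Pde10a* (log2 -1.01, edgeR adjusted p = 0.0725), the striatal phosphodiesterase. In microglia, where 7.81% of all genes were called, 3 of 16 were lower, with a median of -0.47: *Pde10a* (-1.39), *Kcnq3* (-1.22) and *Rgs7* (-1.04), with edgeR adjusted p of 0.0213, 0.0305 and 0.0499. In endothelial cells, where 6.27% of all genes were called, 3 of 19 were lower, with a median of -0.08: *Kcnj3* (-1.56), *Kcnq3* (-1.24) and *Rgs7* (-1.37), with edgeR adjusted p of 0.0361, 0.0475 and 0.0528. The medians over all genes tested again lay within 0.01 of 0. The pan-neuronal ratios given above beside *Chrm3* were also lower in HET in these 3 classes. Whether neuronal RNA had a part in the lower values of these partners was not tested.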

How the data were processed

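Nuclei of brains perfused and processed without detergent, with myelin debris removed, were sequenced with a 10x Genomics 3′ kit. The deposited matrices hold raw UMI counts per gene and barcode, which the authors made with Cell Ranger 5.0.0 (per the file headers) on mm10. The deposited matrices hold all the barcodes used here, 16415 and 16301 for WT and 9905 and 11369 for HET, with 89436507 to 112226479 UMIs per library. The intervals stated for rare genes cover counting error only, and no other limit on their counts.

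Nuclei with 500 to 50000 UMIs, over 200 genes and under 5% mitochondrial UMIs were kept. They were clustered (scanpy 1.11.5, leidenalg 0.10.2, resolution 1) without receptor and partner genes. Clusters were named from marker lists, and clusters in which over 50% of nuclei had high Scrublet scores were left unnamed. Other doublets were not removed. In each library 7 of 8 excitatory, 6 of 6 inhibitory, 9 of 9 oligodendrocyte, 10 of 10 microglia and 8 of 8 endothelial markers were above the other nuclei. The receptor genes, the partner genes and the lists were chosen with earlier results of these data known, and the closer clustering of the striatum was added after the data were seen.

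UMIs were summed per library and class and tested with edgeR 4.0.16 (quasi-likelihood, TMM, at least 10 counts and 10% of nuclei of either genotype). DESeq2 1.42.0 was an alternative, and limma 3.58.1 compared classes (log2 with a prior count of 2). A gene has its values given by library where its highest group reached 20 CPM from at least 50 UMIs, or where it passed 0.01 in a test. *Chrna5*, *Adra2b* and *Chrnb1* were added to these after their values were seen. 1 member and 1 group of nuclei are not reported here. Other members are given by counts and ranges, and of the partner list at most 3 genes per class with the smallest p are named. The 2 libraries of a genotype are separate mice as far as the series' design text says, and no 2 libraries agreed within counting noise (chi-square per degree of freedom from 34.8 to 93.2). Replicate numbers did not pair the libraries (correlations of same-numbered deviations from -0.109 to 0.0215). In simulated counts a 2-fold change was recovered at p under 0.01 for 98.5% of changed genes in excitatory neurons (7646 genes), 100% in inhibitory neurons (6650), 91.0% in oligodendrocytes (3299), 71.6% in microglia (3022) and 43.3% in endothelial cells (3843). Of the unchanged genes 1.61% in excitatory and 0.961% in inhibitory neurons passed 0.01, against 0.314% and 0.12% of all genes in the data. In oligodendrocytes, microglia and endothelial cells the unchanged shares were 1.32%, 0.992% and 0.823%, against 5.94%, 7.81% and 6.27% in the data. Whether the recovery shares hold for the data was not tested.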

Additional observations from a re-analysis of the deposited data

How the results depend on the processing

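Of the 13 single calls, 105 values were computed under the alternatives, of which 72 stayed past the threshold, 33 did not, and 0 changed sign. The 105 hold no value for *Chrm3* in oligodendrocytes or endothelial cells with neuronal RNA subtracted, since fewer than 10 *Chrm3* UMIs were then left in each class. Neither of these *Chrm3* calls could be tested after that subtraction. The highest group was the same for 16 of 16 receptor genes above 20 CPM from at least 50 UMIs without shallow nuclei. It was also the same for 16 of 16 without nuclei of high Scrublet scores, and for 15 to 16 with a library left out. In inhibitory neurons the count of members past 0.01 went from 0 to 1 (*Drd2*) without a detection limit, and lay between 0 and 1 with a library left out. In oligodendrocytes it went from 1 to 0 with DESeq2, with a coarser clustering (resolution 0.5) and with neuronal RNA subtracted, and lay between 0 and 1 with a library left out. In microglia the coarser clustering gave 1 (*Htr2c*), in a cluster that also held 6 of 9 oligodendrocyte markers. In endothelial cells it gave 3 (*Chrm2*, *Chrm3* and *Htr2c*), and subtraction of neuronal RNA gave 0, since 0 members could then be tested. Over subtypes the 11 calls became 18 with the likelihood-ratio test, 24 without a detection limit and 11 to 17 with a library left out. With a replicate block, which the labels' numbers allow but the data did not bear out, the counts were 0, 0, 1, 0 and 1 in the 5 classes (excitatory, inhibitory, oligodendrocyte, microglia, endothelial) and 14 over subtypes. Of the calls named above, *Chrna7* in olfactory bulb or Meis2 inhibitory neurons (edgeR unadjusted p = 0.0104) and *Htr1f* in the striatal nuclei on neither list (unadjusted p = 0.0140) did not pass with the block, and *Htr2c* in CA1 neurons passed the adjusted threshold (edgeR adjusted p = 8.89e-05). The replicate block brought 2 differences between classes past the adjusted threshold, both *Chrm3*. Crossed numbers gave the same 0, 0, 1, 0 and 1. The share of nuclei with *Chrm3* moved to 11.0%, 15.4% and 16.4% after thinning in oligodendrocytes, microglia and endothelial cells. Where not stated above, the cause was not tested.

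Counts over all genes moved more. In excitatory neurons 24 became 60 (likelihood-ratio test), 69 (DESeq2), 122 (no detection limit) and 13 to 187 (a library left out). In inhibitory neurons 8 became 29, 40, 119 and 6 to 183 in the same order, 1 with the coarser clustering and 23 with the replicate block. In oligodendrocytes 196 became 123 (DESeq2), 425 (no detection limit), 21 (coarser), 55 (neuronal RNA subtracted) and 41 to 340 (a library left out). In microglia 236 became 73 (DESeq2), 33 (coarser), 31 (subtracted) and 7 to 175 (a library left out). In endothelial cells 241 became 80 (DESeq2), 152 (coarser), 22 (subtracted) and 161 to 278 (a library left out). Over subtypes 2329 became 3723 (likelihood-ratio test), 3899 (no detection limit), 3628 (replicate block) and 2776 to 5921 (a library left out). In each of the 3 non-neuronal classes 1 member passed the detection limit. With nuclei of at least 1000 UMIs it was 1 in oligodendrocytes, 2 in microglia and 1 in endothelial cells. Whether depth limited these numbers was not tested.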
